A study of Mus musculus with 45 samples.

Results

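Expression after 1 h of bicuculline (Bic, 50 µM) was compared with that of untreated cultures (control) in primary hippocampal neurons of the mouse, across all genes. The comparison took the 10 libraries of the series that the labels give as untreated or as treated with Bic alone for 1 h, of 45 libraries in all, with 5 libraries in each condition. Each of the 5 culture preparations, numbered 1, 3, 6, 7 and 8, gave 1 library of each condition, and the libraries were compared within preparations. Both conditions were cultures from newborn C57BL/6N pups, grown with B27 and 1% rat serum and, per the study's methods, moved on day in vitro 8 to a medium that had insulin, transferrin and selenite in their place. Both had received AraC, which kills dividing cells, on day in vitro 3. Cultures were treated on day in vitro 10 or 11 per the labels (day 11 in the study's methods), and hold glia besides neurons. The study used Bic to raise synaptic activity and, in other cultures, added TTX, NMDA or TBOA after 1 h of Bic, so that these libraries show the state at which those agents arrived. The preparations are separate cultures, and p-values are set against the spread between them in the change from control to 1 h Bic. Control libraries held 11316580 to 50527649 reads assigned to genes and 1 h Bic libraries 17229802 to 44206367, and all levels below are counts brought to a common library size (normalized counts).

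Bic blocks the GABA type A receptor, the main fast inhibitory receptor of the forebrain, and cultured networks freed of this inhibition fire APs in synchronized bursts. Calcium that enters through synaptic NMDA receptors and voltage-gated channels activates kinases that act on the transcription factors CREB, SRF and ELK1. These sit on the promoters of immediate early genes, which are transcribed within minutes and without new protein synthesis. Many immediate early genes encode transcription factors (Fos, Npas4, the Egr and Nr4a families) that act on later genes, others act directly at synapses (Arc, Homer1), and others limit the kinases that started the response (Dusp1, Sik1).

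Of 15184 genes tested, 443 (2.92%) had a higher and 175 (1.15%) a lower level after 1 h Bic (edgeR quasi-likelihood test with the preparation as a block, Benjamini-Hochberg adjusted p under 0.05). Leaving out each preparation in turn gave 274 to 777 genes higher and 39 to 564 lower. The rises were larger than the falls. Among the 443 genes with a higher level, 121 rose by 2-fold or more, 49 by 4-fold or more, 24 by 8-fold or more and 11 by 16-fold or more, whereas 231 rose by less than 1.5-fold, and the median log2 fold change was 0.56. Among the 175 genes with a lower level, 27 fell by more than 1.5-fold and 3 had a log2 fold change of -1 or below, and the median change was a fall by 22.5%. The median log2 fold change of all genes tested was 0.00. A higher level in 5 of 5 preparations was found for 432 of the 443, and a lower level in 5 of 5 for 170 of the 175. The genes were called on these same changes within preparations, so this shared direction is no separate support. In 278 of the 443 every 1 h library lay above every control library, and in 87 of the 175 every 1 h library lay below every control library. Over all genes tested, 2.20% were separated upwards and 1.13% downwards. In RNA from whole cultures, a change in the number of cells of a type and a change in RNA per cell cannot be told apart.

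**Figure D1:**
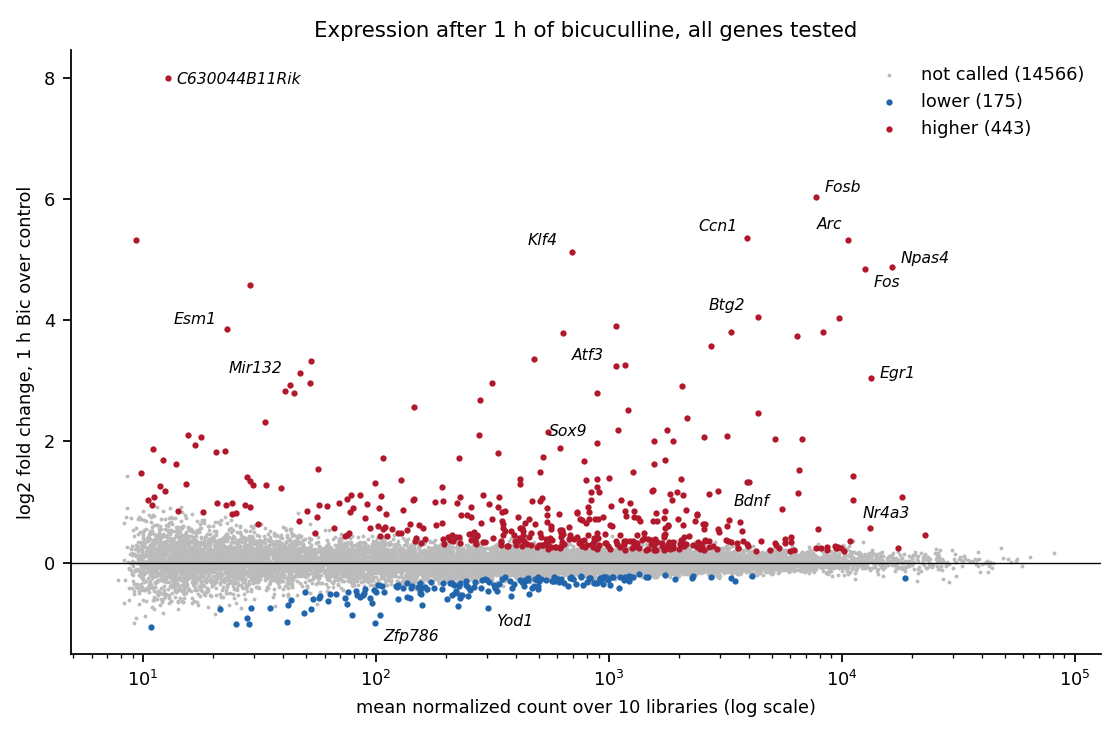
Each point is a gene tested, with its mean normalized count over the 10 libraries on the x axis (log scale) and its log2 fold change after 1 h Bic over control on the y axis; red points passed the test upwards (443), blue points downwards (175) and grey points did not pass. Rises reached 6.04 on the log2 scale for Fosb, while the falls stayed near or above -1. The point of C630044B11Rik, which had no read in any control, has no meaningful height.

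Factors of the AP-1 family, which bind DNA as Fos and Jun dimers, and the small Maf proteins were mostly higher after 1 h Bic. Of 16 listed genes 13 were tested, 10 were higher and 0 lower, with a median log2 fold change of 2.05. Counts of called members in this and the later lists are to be read against 2.92% higher and 1.15% lower of all genes tested. Fos read 957, 664, 764, 1079 and 776 normalized counts in the controls of preparations 1, 3, 6, 7 and 8, in that order, and 25439, 20318, 24933, 25212 and 24821 after 1 h Bic. No treated library came near the control range, a 28.7-fold rise (log2 fold change 4.84 ± 0.08 (SE), adjusted p = 4.11e-13). Fosb, a close relative of Fos, had the largest log2 fold change of the genes with reads in every control. Its levels were 279, 114, 227, 246 and 315 in the controls and 16289, 11508, 14965, 15463 and 17449.8 after 1 h Bic, in the same order (65.9-fold, log2 fold change 6.04 ± 0.10 (SE), adjusted p = 4.11e-13). Preparation 3 was lowest for both genes in both conditions. Junb, a Jun protein that dampens the activity of Jun, read 1204, 884, 946, 1422 and 1063 in the controls and 19557, 13313, 17601, 19014 and 22143 after 1 h Bic (log2 fold change 4.05 ± 0.09 (SE), adjusted p = 6.41e-12). Jun rose less, from 2608 ± 244 to 10831 ± 1461 (mean ± SD, n = 5; log2 fold change 2.05 ± 0.09 (SE), adjusted p = 4.59e-09), and Jund, which is present in resting cells, rose by 0.89 ± 0.10 (SE) on the log2 scale (adjusted p = 0.000111). Fosl1 and Fosl2, the Fra proteins, rose by 2.94 ± 0.19 (SE) and 1.14 ± 0.05 (SE). Maff, a small Maf protein without an activation domain, rose from 70.1 ± 19.9 to 556 ± 84.8 (log2 fold change 2.96 ± 0.10 (SE), adjusted p = 4.61e-10), and its relative Mafg had a log2 fold change of 0.05 ± 0.05 (SE) (adjusted p = 0.634).

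Atf3, a stress- and activity-induced factor of the same family, differed between preparations. Its control levels were 128, 133, 171, 99.1 and 668 and its levels after 1 h Bic 1810.1, 1248, 1955, 1479 and 2997. Preparation 8 stood apart in the control and was also highest after Bic. The groups still did not overlap, and the rise within preparations ranged from 2.16 to 3.89 on the log2 scale (log2 fold change 3.24 ± 0.20 (SE), adjusted p = 2.56e-07).

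**Figure D2:**
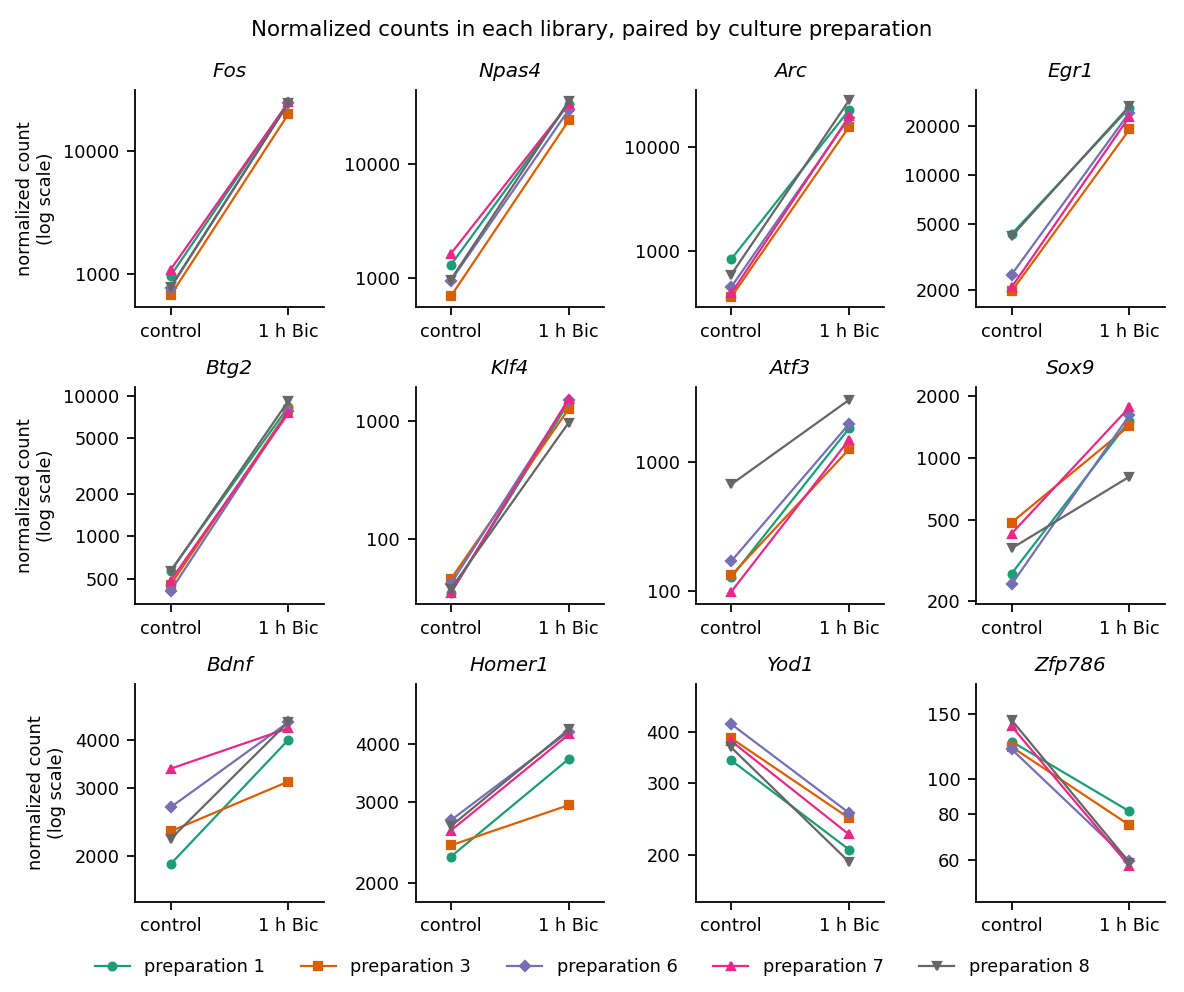
Normalized counts (y axes, log scale) of 12 genes in the control and after 1 h Bic (x axes), with a line and a symbol for each of the 5 culture preparations. The lines of Fos, Npas4, Arc, Egr1, Btg2 and Klf4 climb in every preparation with no overlap between conditions, Atf3 of preparation 8 starts at 668 against 99.1 to 171 in the others, and Yod1 and Zfp786 fall in every preparation.

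The promoters of 4 genes that rose by 16-fold or more and of Zfp786, which fell, are shown because they carry letters of the element that CREB is known to bind, and were chosen with their values and letters known. RefSeq windows of build GRCm38.p6 gave the 250 bases before the transcription start, written 5′ to 3′ on the gene's strand. Capitals mark the letters TGACG, the shorter cyclic AMP response element (CRE), on either strand, the full palindromic CRE TGACGTCA, which contains the shorter one on both strands, and the TATA box letters TATAAA on the gene's strand. The CArG box, the element of SRF, was also searched and has no match in these 5 stretches. Bases further upstream were not searched, so this does not show that these genes lack an SRF site. The Fos window lay at chr12:85473640-85473889, plus strand, that of Npas4 at chr19:4989972-4990221, minus strand, that of Fosb at chr7:19310046-19310295, minus strand, that of Btg2 at chr1:134079156-134079405, minus strand, and that of Zfp786 at chr6:47830506-47830755, minus strand.
Fos: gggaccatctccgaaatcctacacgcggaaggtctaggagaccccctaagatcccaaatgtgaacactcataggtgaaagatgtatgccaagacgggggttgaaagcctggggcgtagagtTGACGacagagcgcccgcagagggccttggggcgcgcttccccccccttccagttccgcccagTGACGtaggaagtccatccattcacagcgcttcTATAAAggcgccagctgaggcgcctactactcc
Npas4: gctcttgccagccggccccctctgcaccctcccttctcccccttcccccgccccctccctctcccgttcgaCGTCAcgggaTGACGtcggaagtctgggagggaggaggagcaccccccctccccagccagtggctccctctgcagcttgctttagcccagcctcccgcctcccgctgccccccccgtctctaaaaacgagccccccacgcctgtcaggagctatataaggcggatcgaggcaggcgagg
Fosb: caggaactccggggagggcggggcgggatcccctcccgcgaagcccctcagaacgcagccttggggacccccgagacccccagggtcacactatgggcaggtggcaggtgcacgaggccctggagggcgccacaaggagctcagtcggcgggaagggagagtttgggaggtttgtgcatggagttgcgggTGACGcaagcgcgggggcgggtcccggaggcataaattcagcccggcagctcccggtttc
Btg2: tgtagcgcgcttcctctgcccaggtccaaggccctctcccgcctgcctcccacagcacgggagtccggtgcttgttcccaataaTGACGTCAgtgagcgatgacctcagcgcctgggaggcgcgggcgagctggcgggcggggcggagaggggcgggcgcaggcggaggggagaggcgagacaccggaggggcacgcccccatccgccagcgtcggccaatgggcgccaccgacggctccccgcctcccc
Zfp786: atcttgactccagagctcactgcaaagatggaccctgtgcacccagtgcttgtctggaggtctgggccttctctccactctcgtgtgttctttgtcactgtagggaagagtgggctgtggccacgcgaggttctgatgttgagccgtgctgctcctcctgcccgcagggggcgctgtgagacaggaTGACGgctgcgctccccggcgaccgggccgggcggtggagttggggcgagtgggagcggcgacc
Fos held the shorter CRE letters at bases -129 to -125 and -66 to -62 from the start and TATAAA at -33 to -28. Npas4 held the shorter CRE on opposite strands at -179 to -175 and -169 to -165. Fosb held it at -60 to -56, and Btg2 held the full palindrome at -166 to -159. Zfp786 held the shorter CRE as well, at -64 to -60. Of 32851 RefSeq windows of 300 bases, from 250 before to 50 after a start, 20.8% held the shorter CRE, 1.79% the full palindrome, 1.63% the CArG box and 8.32% TATAAA on the gene's strand. Windows under the same symbol were found for 325 of the 443 genes with a higher and 136 of the 175 with a lower level, and because of this incomplete match shares were not compared between the groups. These matches describe letters and not bound sites.

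The zinc finger factors of the Egr family and their Nab corepressors were 5 of 6 higher (median log2 fold change 2.54), with Nab1 as the member that did not pass (0.04 ± 0.05 (SE), adjusted p = 0.763). Egr1 read 4359, 1954, 2472, 2067 and 4236 in the controls, and 25703, 18975, 24069, 22735 and 26373 after 1 h Bic (log2 fold change 3.04 ± 0.12 (SE), adjusted p = 2.44e-09). Its control level was highest in preparations 1 and 8, and its rise was smallest there, 2.56 and 2.64 on the log2 scale. Egr2 rose 15.1-fold from 139.9 ± 46.8 to 2005 ± 296 (mean ± SD, n = 5), and Egr4 rose 13.4-fold from 887 ± 207 to 11916 ± 2779. Egr3 read 2314, 1541, 1758, 1916 and 2462 in the controls and 8719, 5949.6, 7855, 7928 and 10907 after Bic, a 4.12-fold rise without overlap. Nab2, which holds Egr factors in check, rose by 0.29 ± 0.07 (SE) on the log2 scale (adjusted p = 0.0303) and lost the call without preparation 1, 7 or 8 (adjusted p = 0.0743, 0.208 and 0.0964).

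All 3 orphan nuclear receptors of the Nr4a family rose, in the order Nr4a1, Nr4a2 and Nr4a3. Nr4a1 read 1230.3, 758, 1218, 1340.3 and 950.0 in the controls and 15899.8, 12101, 15202, 16101 and 17570.4 after 1 h Bic (log2 fold change 3.82 ± 0.09 (SE), adjusted p = 8.61e-12). Nr4a2 rose by 2.48 ± 0.07 (SE) and Nr4a3 by 1.03 ± 0.06 (SE) on the log2 scale, so that neighbours in this order differed by more than their standard errors. Npas4, the neuron-specific factor that responds to calcium and not to growth factors, gained more normalized counts than any other gene. It read 1293, 684, 938, 1622 and 959.7 in the controls and 34049, 24153, 29980.4, 33807 and 35721 after 1 h Bic (29.5-fold, log2 fold change 4.88 ± 0.11 (SE), adjusted p = 7.61e-12). Its DNA-binding partners did not pass the test, with 0.12 ± 0.07 (SE) for Arnt (adjusted p = 0.409) and 0.07 ± 0.06 (SE) for Arnt2 (adjusted p = 0.586). Among 16 listed genes of this group and of the circadian clock, 6 were higher and 0 lower. The clock genes among them were Per1, which represses the clock and rose from 1805 ± 276 to 4068 ± 476 (log2 fold change 1.17 ± 0.07 (SE), adjusted p = 1.41e-07), Bhlhe40 (0.49 ± 0.07 (SE)), Cry2 (0.36 ± 0.05 (SE)), Ciart (0.47 ± 0.09 (SE)) and Nr1d1 (0.28 ± 0.06 (SE)), of which Nr1d1 lost the call without preparation 7 (adjusted p = 0.156). The activators Clock (0.02 ± 0.07 (SE)) and Arntl (-0.02 ± 0.07 (SE)) did not pass.

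Of 13 Krüppel-like factors, 5 were higher and 1 lower. Klf4, a factor best known from stem cells, read 34.6, 45.6, 41.5, 34.8 and 37.7 normalized counts in the controls and 1440.0, 1269.7, 1507, 1543 and 969.7 after 1 h Bic (35.2-fold, log2 fold change 5.14 ± 0.11 (SE), adjusted p = 5.26e-12). Klf5 rose by 1.02 ± 0.09 (SE), and Klf6, Klf9 and Klf16 by less than 0.5 on the log2 scale. Klf10, a TGF-β-induced repressor, was lower, with a log2 fold change of -0.28 ± 0.07 (SE) (adjusted p = 0.0415), and lost the call without preparation 1, 6, 7 or 8 (adjusted p = 0.127, 0.0613, 0.275 and 0.13).

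Some genes that feed back on the signals themselves rose. Of 18 genes of MAP kinase feedback tested, 9 were higher and 1 lower (median log2 fold change 0.34). Dusp1, a nuclear phosphatase of MAP kinases, read 428, 379.9, 403, 496 and 381 in the controls and 5451, 4094, 4846, 5473 and 5287 after 1 h Bic (11.9-fold, log2 fold change 3.58 ± 0.07 (SE), adjusted p = 1.82e-12). The ERK phosphatase Dusp6 rose from 1223 ± 155 to 5204 ± 453 (log2 fold change 2.09 ± 0.06 (SE), adjusted p = 5.28e-11), the nuclear phosphatases Dusp4 and Dusp5 by 1.11 ± 0.06 (SE) and 1.49 ± 0.11 (SE), and Errfi1, an inhibitor of EGF receptors, by 1.69 ± 0.09 (SE). Spry1, Spry2 and Spry4, which inhibit receptor tyrosine kinase signalling, rose by 0.57 ± 0.08 (SE), 0.81 ± 0.06 (SE) and 0.36 ± 0.05 (SE). Dusp7 was lower, with a log2 fold change of -0.24 ± 0.06 (SE) (adjusted p = 0.0294), and lost the call without preparation 1, 6, 7 or 8 (adjusted p = 0.0537, 0.127, 0.212 and 0.0773). In the CREB pathway the factors and coactivators moved little. Of 14 genes 4 were higher, led by Sik1, a kinase that keeps the CREB coactivators out of the nucleus, which read 579, 514, 599, 797 and 606 in the controls and 2463, 2148, 2452, 2833 and 2539 after 1 h Bic (log2 fold change 2.01 ± 0.06 (SE), adjusted p = 6.45e-11). The phosphodiesterases Pde4b (0.31 ± 0.06 (SE)) and Pde4d (0.39 ± 0.08 (SE)), which degrade cyclic AMP, lost the call without preparation 7 (adjusted p = 0.059 and 0.0787). Crtc3, a CREB coactivator, rose by 0.25 ± 0.06 (SE) and lost the call without preparation 1, 6, 7 or 8 (adjusted p = 0.132, 0.0627, 0.189 and 0.0512). Without preparation 7, 1 gene of this list was higher. Creb1 itself had a log2 fold change of -0.17 ± 0.07 (SE) (adjusted p = 0.235).

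Among other immediate early regulators, 27 of 35 tested were higher and 1 lower (median log2 fold change 0.98). Btg2, an antiproliferative protein that recruits the CCR4-NOT deadenylase, had the lowest p-value of all genes. It read 568, 451, 409, 483 and 562 in the controls and 8429, 7949.6, 7799, 7550.3 and 9260.2 after 1 h Bic (16.7-fold, log2 fold change 4.06 ± 0.06 (SE), adjusted p = 4.11e-13). Its relatives Btg1, Tob1 and Tob2 rose by 1.40 ± 0.09 (SE), 1.49 ± 0.09 (SE) and 1.68 ± 0.07 (SE). Gadd45g, a stress sensor linked to DNA demethylation, read 448, 463, 356, 419 and 529.7 in the controls and 6716, 4673, 5634, 6415 and 7674 after Bic (log2 fold change 3.80 ± 0.10 (SE), adjusted p = 2.27e-11), and Gadd45b and Gadd45a rose by 3.27 ± 0.08 (SE) and 0.56 ± 0.10 (SE). Gadd45a lost the call without preparation 7 (adjusted p = 0.0553). Trib1, a pseudokinase, rose from 388 ± 25.4 to 1788 ± 204 (log2 fold change 2.20 ± 0.08 (SE), adjusted p = 4.91e-10), whereas its relative Trib3 was lower, with a log2 fold change of -0.37 ± 0.10 (SE) (adjusted p = 0.0491), and Trib2 did not pass (0.01 ± 0.06 (SE), adjusted p = 0.977). Trib3 lost the call without preparation 1, 6 or 7 (adjusted p = 0.0949, 0.169 and 0.18). The small GTPase genes Rem2 and Gem, whose products restrain calcium channels, rose by 0.64 ± 0.07 (SE) and 0.91 ± 0.12 (SE).

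Of 15 genes of the SRF pathway and of actin-linked SRF targets tested, 2 were higher, beside 2.92% of all genes tested. Ccn1, which encodes a matrix-associated signalling protein, read 222, 205, 147, 218 and 137 in the controls and 9013, 7147, 7406, 8070.4 and 6643 after 1 h Bic (41.3-fold, log2 fold change 5.37 ± 0.09 (SE), adjusted p = 4.11e-13). Srf rose by 0.61 ± 0.07 (SE) (adjusted p = 0.000103). Ccn2, the closest relative of Ccn1, had a log2 fold change of -0.19 ± 0.10 (SE) (adjusted p = 0.313), and the actin genes Actb and Actg1 had 0.03 ± 0.05 (SE) and 0.15 ± 0.05 (SE), neither past the test with all preparations. Without preparation 3 Actg1 passed (0.16, adjusted p = 0.0177), and 3 genes of this list were higher.

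Of 19 effectors of synaptic plasticity, 12 were higher and 0 lower (median log2 fold change 0.42). Arc, whose protein drives the removal of AMPA receptors from synapses, read 841, 365, 456, 396 and 599 in the controls and 22303, 15444, 18761, 19357 and 27627 after 1 h Bic (40.3-fold, log2 fold change 5.33 ± 0.12 (SE), adjusted p = 5.89e-12). Ptgs2, the inducible cyclooxygenase of prostaglandin synthesis, read 130.4, 63.2, 82.1, 109 and 51.0 and then 1381, 1111, 1336, 1337 and 757 (log2 fold change 3.80 ± 0.09 (SE), adjusted p = 1.71e-11). Preparation 8 had the lowest levels of Ptgs2 in both conditions but the highest level of Arc after Bic. Plk2, a kinase that weakens synapses under sustained activity, rose from 3378 ± 207 to 9740.2 ± 613, and Pcdh8, a protocadherin taken up with synaptic cadherin, from 6015 ± 639.8 to 16259 ± 2356 (mean ± SD, n = 5). The G protein regulator Rgs4 rose by 1.08 ± 0.06 (SE), the neuronal pentraxin Nptx2 by 0.71 ± 0.10 (SE) and the synapse organizer Lrrtm2 by 0.42 ± 0.06 (SE). Homer1, a postsynaptic scaffold whose short activity-induced form is counted together with the long form, read 2283, 2415, 2736, 2599.8 and 2657 in the controls and 3708, 2949, 4249.6, 4189 and 4295 after Bic (log2 fold change 0.60 ± 0.07 (SE), adjusted p = 0.000145). The related pentraxins Nptx1 (0.07 ± 0.07 (SE)) and Nptxr (0.09 ± 0.05 (SE)) did not pass.

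Of 26 secreted factors and neuropeptides tested, 10 were higher and 0 lower, none of them by 2-fold, with a median log2 fold change of 0.17. Over the alternatives run, 5 to 13 were higher. Bdnf, the neurotrophin of activity-dependent plasticity, read 1907, 2319, 2676, 3368 and 2215 in the controls and 4003, 3120.2, 4445, 4286 and 4452 after 1 h Bic (log2 fold change 0.71 ± 0.10 (SE), adjusted p = 0.000656). The ranges overlapped, since the control of preparation 7 lay above the treated library of preparation 3, and the level rose within each preparation. The granin Scg2 read 5414, 6320.4, 7384, 6420.0 and 6309.7 in the controls and 8254, 8547, 10941, 9606 and 9381 after Bic, without overlap (log2 fold change 0.55 ± 0.05 (SE), adjusted p = 1.47e-05). Vgf, a neuropeptide precursor, had overlapping ranges, from 7324 to 12596 and from 9572 to 18795, and its call (log2 fold change 0.57 ± 0.07 (SE), adjusted p = 0.000248) was lost without the replicate block (adjusted p = 0.115). Inhba, the activin A subunit, rose from 180.0 ± 11.8 to 242 ± 28.9 (log2 fold change 0.45 ± 0.09 (SE), adjusted p = 0.0117), a call lost without preparation 6 (adjusted p = 0.0771) or 7 (adjusted p = 0.126). Adcyap1, the precursor of the peptide PACAP, and Plat, the tissue plasminogen activator, rose by 0.52 ± 0.06 (SE) and 0.47 ± 0.06 (SE), and both lost the call without the replicate block (adjusted p = 0.369 and 0.0525).

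For receptors and channels, whose counts are to be read against the 2.92% higher and 1.15% lower of all genes tested, few calls were made. None of 22 glutamate receptor genes and none of 12 GABA type A receptor subunits was called by edgeR, and their median log2 fold changes were 0.05 and -0.07. The lowest adjusted p-values were 0.0657 for the NMDA receptor subunit Grin2d (0.22 ± 0.06 (SE)) and 0.0863 for Gabra4 (-0.19 ± 0.06 (SE)), and without preparation 3 these became 0.0412 and 0.00887. At an unadjusted p under 0.05, 5 glutamate receptor genes and 4 GABA type A receptor subunits passed, DESeq2 with the replicate block called 0 in both lists, and without preparation 3 the counts were 2 higher and 2 lower and 0 higher and 2 lower. Of 39 potassium channel genes, 2 were higher and 1 lower. Kcnj2, an inward rectifier that sets the resting potential, read 297, 180.1, 287, 210.4 and 225 in the controls and 806, 798, 1056, 619.7 and 715 after 1 h Bic (log2 fold change 1.74 ± 0.09 (SE), adjusted p = 2.41e-08). The electrically silent subunit Kcnf1 rose by 0.69 ± 0.05 (SE), and Kcna4, an A-type channel, fell by 0.37 ± 0.06 (SE) on the log2 scale (adjusted p = 0.00309). Without preparation 3 the counts of potassium channel genes were 2 higher and 3 lower.

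Of 25 chromatin and Mef2 regulators, 3 were higher and 0 lower, beside 2.92% higher and 1.15% lower of all genes tested. Among them were Kdm6b, which demethylates histone H3 at lysine 27 (0.85 ± 0.08 (SE)), and Tet2, which oxidizes 5-methylcytosine (0.71 ± 0.10 (SE)). Among 16 genes of the unfolded protein, integrated stress and heat shock responses tested, 2 were higher, the cochaperone Dnajb1 (log2 fold change 0.85 ± 0.06 (SE), adjusted p = 1.41e-06) and the inducible Hsp70 gene Hspa1b (0.49 ± 0.11 (SE)), of which Hspa1b lost the call without preparation 1, 7 or 8 (adjusted p = 0.0626, 0.237 and 0.0785). Atf4 (0.17 ± 0.06 (SE)), Ddit3 (0.09 ± 0.09 (SE)) and Hspa5 (0.10 ± 0.06 (SE)), markers of endoplasmic reticulum stress, did not pass. Without preparation 3, 8 genes of this list were higher, and the inducible Hsp70 gene Hspa1a (0.41) and the stress sensor Sesn2 (0.21) were among them (adjusted p = 0.00367 and 0.00146). Without preparation 1, 7 or 8, 1 was higher.

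In the group of Notch, Id, Hes and Sox genes, 5 of 19 were higher and 0 lower. Sox9, a factor of glia and progenitors, read 273, 483, 242, 427 and 362 in the controls and 1510.5, 1432, 1608, 1759.5 and 809 after 1 h Bic (3.95-fold, log2 fold change 1.98 ± 0.17 (SE), adjusted p = 7.84e-06). The groups did not overlap, and preparation 8, with the lowest treated level, rose least. The neuronal differentiation factors Sox4 and Sox11 rose by 0.64 ± 0.08 (SE) and 0.69 ± 0.09 (SE), and Notch1 by 0.38 ± 0.08 (SE). Notch1 lost the call without preparation 1, 6 or 7 (adjusted p = 0.0824, 0.0688 and 0.163). Id2, an inhibitor of basic helix-loop-helix factors, rose by 0.29 ± 0.06 (SE) and lost the call without preparation 1, 6 or 7 (adjusted p = 0.082, 0.0734 and 0.0528). Without preparation 1, 6 or 7, 3 genes of this list were higher. Hes1 (-0.15 ± 0.16 (SE)) and Hes5 (-0.23 ± 0.17 (SE)), which act downstream of Notch, did not pass. Of 8 astrocyte markers 0 passed the test (edgeR), 2 had an unadjusted p under 0.05, and DESeq2 called 0. Their summed level ranged from 23851 to 31904 normalized counts in the controls and from 22369 to 35193 after 1 h Bic, and Gfap, the astrocyte filament protein, had a log2 fold change of 0.09 ± 0.05 (SE).

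Counts of cell type markers are likewise to be read against 2.92% and 1.15% of all genes tested. Excitatory neuron markers, among them the vesicular transporter Slc17a7, summed to 53948 to 82551 normalized counts in the controls and 67814 to 82342 after 1 h Bic, and 0 of 8 passed with edgeR or DESeq2 (3 at an unadjusted p under 0.05). Of 8 inhibitory neuron markers only the homeobox gene Dlx2 passed, with levels of 224, 312, 269, 297 and 225 in the controls and 419.7, 445, 459, 467 and 361 after Bic (log2 fold change 0.69 ± 0.07 (SE), adjusted p = 5.71e-05), while Gad1 and Gad2, the GABA-synthesizing enzymes, had 0.00 ± 0.05 (SE) and 0.05 ± 0.05 (SE). Of 8 microglia markers 3 had enough reads to be tested, with a sum over all 8 of 148 to 206 normalized counts after 1 h Bic. Of 9 vascular and fibroblast markers tested, Col1a1 passed (log2 fold change 0.29 ± 0.07 (SE), adjusted p = 0.0462) and lost the call without preparation 6, 7 or 8 (adjusted p = 0.108, 0.294 and 0.0738). None of 3 microglia, 7 oligodendrocyte and 6 dividing-cell markers tested passed with edgeR or DESeq2 (0, 1 and 0 at an unadjusted p under 0.05). Without preparation 3, further markers passed, with log2 fold changes of 0.32 for the interneuron peptide Sst, 0.21 for the vesicular GABA transporter Slc32a1, 0.21 and -0.13 for the neuronal factors Neurod2 and Neurod6, and 0.17 for the astrocyte enzyme Aldoc (adjusted p = 1.25e-05, 0.00331, 0.00307, 0.0448 and 0.0205). The vascular and fibroblast markers Col1a2 (0.21) and Rgs5 (-0.29) passed in opposite directions (adjusted p = 0.0326 and 0.0342), and Pdgfra, of oligodendrocyte precursors, passed without preparation 8 (0.43, adjusted p = 0.045). The part of these markers in the changes above was not tested. Mitochondrially encoded mRNAs were 1 of 7 lower, mt-Nd2 (log2 fold change -0.26 ± 0.06 (SE), adjusted p = 0.0281), a call lost without preparation 6, 7 or 8 (adjusted p = 0.0517, 0.215 and 0.103). DESeq2 called 4 of the 7 lower, and without preparation 3 edgeR called 5. The share of counts from the mitochondrial genome was 0.749% to 1.04% in the controls and 0.614% to 0.829% after 1 h Bic.

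**Figure D3:**
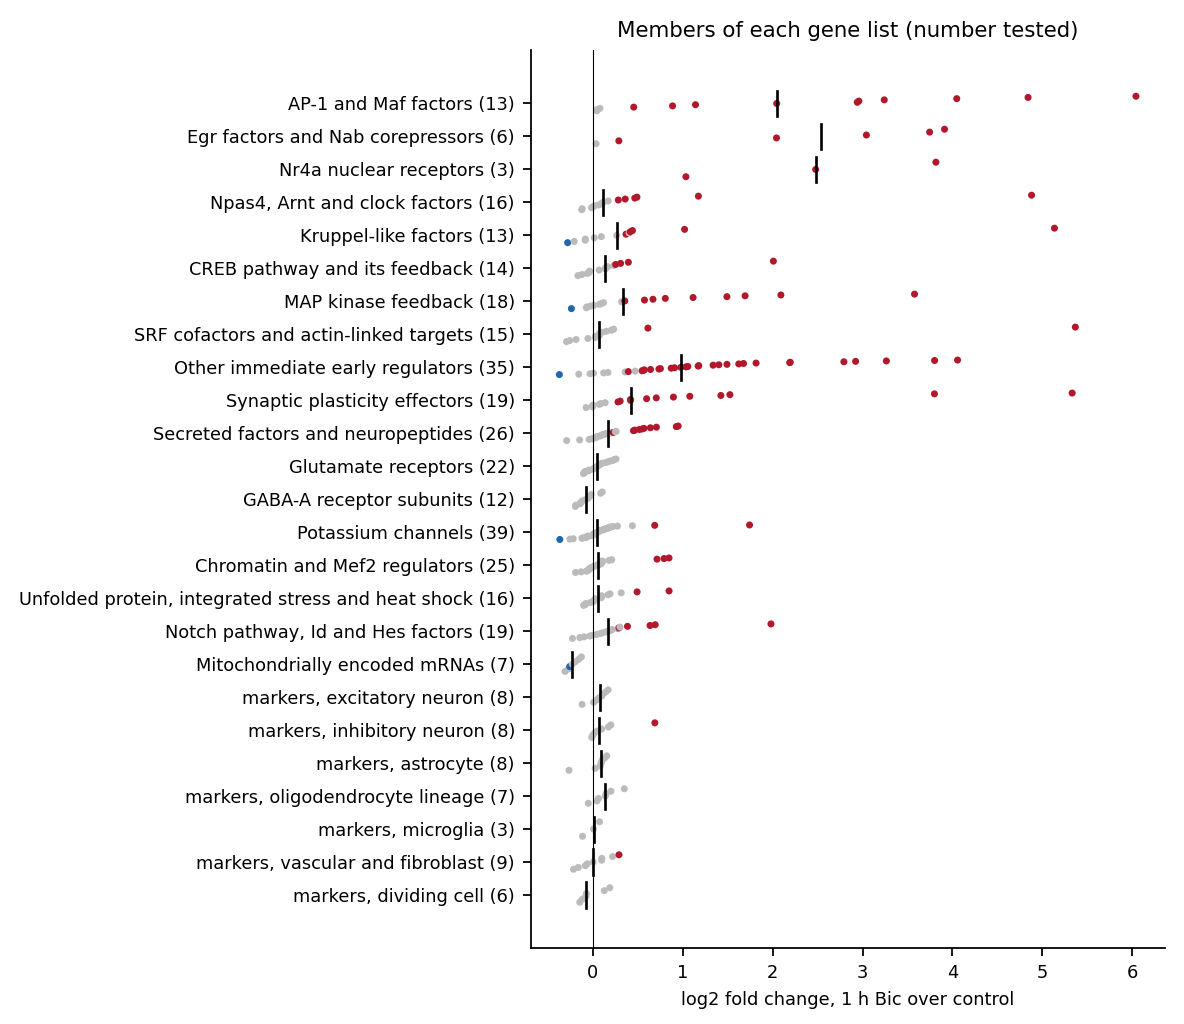
Each point is a tested member of a gene list (rows, with the number tested), placed by its log2 fold change after 1 h Bic over control (x axis); red members were higher, blue members lower and grey members did not pass, and black bars mark list medians. The medians of the AP-1, Egr and Nr4a lists lie at 2.05, 2.54 and 2.48, and those of the receptor, channel and cell marker lists lie close to 0.

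The 18 lists without the cell markers held 17 of the 24 genes that rose by 8-fold or more, 50 of the 121 that rose by 2-fold or more and 105 of all 443, against 318 of the 15184 genes tested. Large risers outside them were named after their values were seen. Spty2d1 read 670.2, 590.1, 708, 621 and 864 in the controls and 3860.3, 2985, 3849.8, 3593 and 3803 after 1 h Bic (log2 fold change 2.39 ± 0.07 (SE), adjusted p = 6.17e-11). Tiparp, an ADP-ribosyltransferase, rose from 353 ± 37.5 to 2057 ± 341 (log2 fold change 2.52 ± 0.11 (SE), adjusted p = 5.94e-09), and Adamts1, a matrix protease, from 973 ± 95.4 to 4123 ± 326 (log2 fold change 2.08 ± 0.06 (SE), adjusted p = 8.28e-11). Nfkbiz, a nuclear modulator of NF-κB, rose by 2.11 ± 0.07 (SE), the deubiquitinase gene Otud1 by 1.89 ± 0.10 (SE) and Kcne4, a potassium channel accessory subunit, by 2.83 ± 0.18 (SE). Esm1, an endothelial proteoglycan, read 2.04, 2.07, 1.59, 3.29 and 4.86 in the controls and 37.3, 53.3, 58.5, 32.9 and 32 after 1 h Bic (log2 fold change 3.86 ± 0.29 (SE), adjusted p = 1.55e-06).

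The microRNA genes Mir132 and Mir212 rose with the transcript that carries them. MicroRNAs guide silencing complexes to mRNAs through their seed, and miR-132 is a known CREB-induced microRNA of neurons. Both hairpins lie in an intron of 1700016P03Rik (chr11:75172560-75177633, plus strand; GRCm38), and RefSeq gives their mature sequences, shown with the seed (bases 2 to 8) in capitals to compare it between the members of the pair.
mmu-miR-132-3p: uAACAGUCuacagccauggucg
mmu-miR-212-3p: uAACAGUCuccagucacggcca
mmu-miR-132-5p: aACCGUGGcuuucgauuguuac
mmu-miR-212-5p: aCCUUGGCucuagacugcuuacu
The 3p strands have the same seed, and the 5p strands do not. The host transcript read 87.6, 74.5, 81.3, 96.3 and 74.1 in the controls and 875, 849, 799, 892 and 907 after 1 h Bic (log2 fold change 3.37 ± 0.08 (SE), adjusted p = 8.61e-12). Reads on the hairpin of Mir132 came to 6.11, 6.21, 7.97, 16.4 and 3.64 normalized counts and then to 96.6, 77.7, 67.7, 86.2 and 102 (log2 fold change 3.14 ± 0.23 (SE), adjusted p = 1.68e-06), and those on Mir212 to 10.2, 5.18, 7.97, 16 and 2.43 and then to 112, 66.6, 81.2, 103 and 123 (log2 fold change 3.34 ± 0.23 (SE), adjusted p = 9.05e-07). All treated libraries lay above all controls for the 3 genes. Mature microRNAs carry no poly-A tail, and reads on the hairpins measure the precursor RNA.

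Several other non-coding gene models lie within genes on the same strand, where reads cannot be told from those of unspliced host RNA. C630044B11Rik, within the TrkB gene Ntrk2 (chr13:58812153-58814363), had 0 reads in all 5 controls and 30.4, 21.5, 24.9, 37.3 and 13.5 normalized counts after 1 h Bic. Against a floor of 3 reads over the 5 controls together, its level was at least 48.3-fold higher, while Ntrk2 itself had a log2 fold change of 0.11 ± 0.07 (SE) (adjusted p = 0.411). Gm43359, within the calcium pump gene Atp2a2, read 2.04, 5.18, 0.797, 2.82 and 0 in the controls and 58.0, 65.1, 57.4, 61.3 and 35.7 after Bic (log2 fold change 4.58 ± 0.29 (SE), adjusted p = 3.54e-07), and Atp2a2 had 0.06 ± 0.05 (SE) (adjusted p = 0.532). Gm45263, within Gpm6a, read 0 to 0.797 in the controls and 19.3, 21.5, 21.7, 16.9 and 12.3 after Bic, and Gpm6a had -0.15 ± 0.05 (SE) (adjusted p = 0.154). Gm17024, within Ifrd1, rose by 2.80 ± 0.21 (SE), and there the host rose as well (log2 fold change 0.68 ± 0.09 (SE), adjusted p = 0.000516). The long non-coding RNA Neat1, the core of nuclear paraspeckles, rose by 1.01 ± 0.12 (SE) and Malat1 by 0.24 ± 0.06 (SE) (adjusted p = 0.000153 and 0.0379), and Malat1 lost the call without preparation 1, 6, 7 or 8 (adjusted p = 0.156, 0.0667, 0.266 and 0.0624).

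Many of the genes with a lower level were zinc finger genes, a group noticed after the values were seen and described without a test. Of 379 tested genes with a Zfp, Zkscan or Zscan symbol, many of which encode DNA-binding C2H2 zinc finger repressors, 60 (15.8%) were lower and 8 (2.11%) higher, against 1.15% and 2.92% of all genes tested. They made up 60 of the 175 genes with a lower level. Without preparation 7 only 39 genes of any kind were lower, and the zinc finger genes among them were not counted. The median log2 fold change of the 379 was -0.10, and 69.9% were below 0, against 48.3% of all genes tested. Shares below 0 were as high in other families, at 74.7% for 99 ribosomal protein genes (Rpl and Rps symbols), of which 0 were called, and 71.8% for 39 genes with a Zbtb symbol, of which 2 were higher and 2 lower. The 60 zinc finger genes that fell lay on many chromosomes, with 17 of 94 on chromosome 7, 10 of 45 on chromosome 17 and 9 of 35 on chromosome 13, where such genes form clusters. Among the 8 that rose, Zfp36l1 and Zfp36l2 belong to another class and encode RNA-binding proteins. Genes of such clusters share sequence, and reads with several mapping positions were not counted, so that reads of near-identical members may be missing from these levels.

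**Figure D4:**
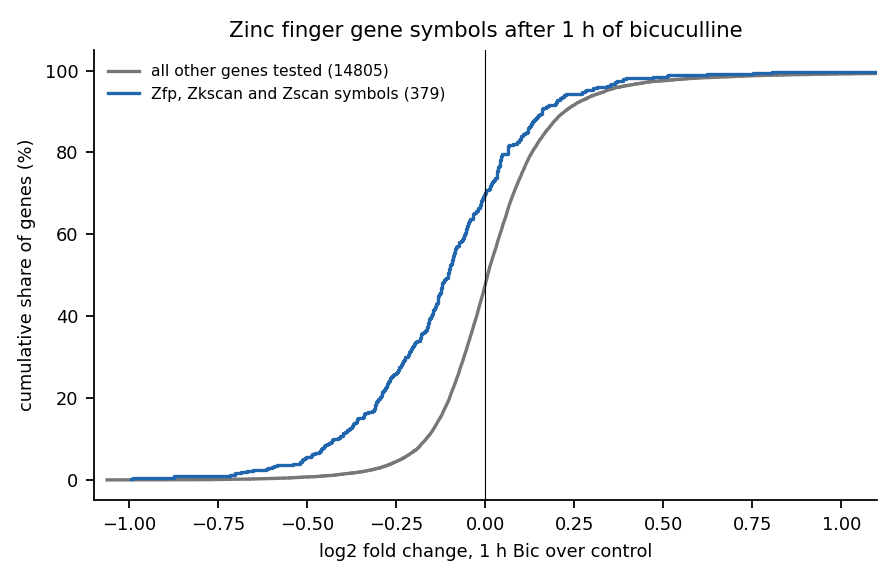
Cumulative share of genes (y axis, %) by log2 fold change after 1 h Bic over control (x axis, shown from -1.1 to 1.1), for the 379 tested genes with a Zfp, Zkscan or Zscan symbol (blue) and all other genes tested (grey). The blue curve lies to the left and crosses 0 at 69.9%.

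Zfp786 had the largest fall among genes with a mean of at least 100 normalized counts in the controls. Its levels were 126, 122, 120.4, 139 and 145 in the controls and 81.5, 74.7, 59.6, 57.8 and 59.1 after 1 h Bic, without overlap (log2 fold change -0.996 ± 0.11 (SE), adjusted p = 0.000102). Zfp712 (104, 156, 144, 126 and 137 in the controls and 62.1, 88.8, 85.6, 55.1 and 76.3 after Bic) and Zfp273 (91.7, 123, 108, 81.7 and 99.6 and then 63.5, 74.0, 62.8, 34.7 and 46.8), both on chromosome 13, fell by similar amounts (-0.88 ± 0.10 (SE) and -0.87 ± 0.12 (SE); adjusted p = 9.73e-05 and 0.00043). In neither gene did the conditions overlap. Zfp87 and Zfp748, also on chromosome 13, fell from 279.6 ± 33.7 to 172 ± 18.3 and from 194 ± 31.4 to 122 ± 31.1 (mean ± SD, n = 5; adjusted p = 7.65e-05 and 0.000916). Zfp11 fell from 117 ± 9.62 to 74.4 ± 9.57 (adjusted p = 0.00173), and Zfp128 from 148 ± 10.6 to 98.6 ± 21.1, a call (adjusted p = 0.00788) that was lost without preparation 6 (adjusted p = 0.0534) or 7 (adjusted p = 0.0702).

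Outside this family, Yod1, which encodes a deubiquitinase, had the lowest p-value among falling genes. It read 340.2, 385, 417, 379 and 366 in the controls and 206, 246, 253, 224 and 192 after 1 h Bic, without overlap (log2 fold change -0.75 ± 0.07 (SE), adjusted p = 8.87e-06). Further genes were named after their values were seen. Cox17, a copper chaperone of cytochrome oxidase, read 57.0, 74.5, 74.9, 54.5 and 70.5 and then 30.4, 42.9, 40.1, 33.8 and 48.0 (log2 fold change -0.77 ± 0.12 (SE), adjusted p = 0.00208). Insm1, a factor of neuroendocrine progenitors, fell from 112 ± 16.6 to 75.5 ± 10.5, and Txnip, an inhibitor of thioredoxin, from 68.5 ± 17.2 to 45.8 ± 17.2 (mean ± SD, n = 5; adjusted p = 0.0164 and 0.0305). The levels of Txnip overlapped between conditions, with the highest value of each condition in preparation 3. Insm1 lost the call without preparation 7 or 8 (adjusted p = 0.154 and 0.0578). Txnip lost the call without preparation 1, 6, 7 or 8 (adjusted p = 0.088, 0.0599, 0.161 and 0.0964). Lower levels were also found for Tfam, which maintains mitochondrial DNA (-0.28 ± 0.06 (SE)), the AMP-activated kinase subunit Prkaa1 (-0.28 ± 0.07 (SE)), the somatostatin receptor Sstr3 (-0.40 ± 0.07 (SE)) and the synaptic adhesion gene Nlgn3 (-0.24 ± 0.06 (SE)). Of these, Tfam lost the call without preparation 1 or 7 (adjusted p = 0.0874 and 0.153), and Prkaa1 and Nlgn3 lost it without preparation 7 and others (adjusted p = 0.231 and 0.208 without preparation 7).

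Genes that changed had a shorter genomic span at the median, the distance from the start to the end of the annotated gene. Among protein-coding genes, the median span was 26.7 kb for the 13625 tested, 13.5 kb for the 410 with a higher level and 12.8 kb for the 167 with a lower level. The 102 that rose by 2-fold or more had a median of 5.93 kb, and 64.7% of them spanned less than 10 kb, against 22.4% of all. Of these 102 genes 2 spanned more than 100 kb. Median exon length differed less, at 4.64 kb for all tested, 4.51 kb for the 410, 4.23 kb for the 167 and 3.48 kb for the 102. With the genes split by span into 4 groups of equal size, the share with a higher level was 5.52%, 2.64%, 2.03% and 1.85% from the shortest to the longest, and the share with a lower level 2.05%, 1.85%, 0.764% and 0.235%. No test was run on these shares.

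To place the 1 h level in time, it was also compared with the libraries of 0.5 and 2 h Bic from the same preparations. These comparisons share the 1 h libraries with each other and with the one above, and values are given side by side. Of 14806 genes tested between 0.5 and 1 h, 239 (1.61%) were higher and 47 (0.317%) lower at 1 h, and of 15330 genes tested between 1 and 2 h, 1686 (11%) were higher and 1921 (12.5%) lower at 2 h. For some early genes 1 h was the peak. Btg2 had means of 495, 4292, 8198 and 5638 normalized counts at 0, 0.5, 1 and 2 h, with log2 steps of 0.94 (adjusted p = 3.36e-06) and -0.54 (adjusted p = 0.000119) to and from 1 h. Ccn1 (186, 3332, 7656 and 4864) had steps of 1.19 and -0.70 (adjusted p = 1.79e-06 and 0.000128), and Dusp1 of 1.03 and -0.31 (adjusted p = 7.95e-06 and 0.0066). Arc had means of 20698 at 1 h and 19465 at 2 h, a step of -0.06 that did not pass (adjusted p = 0.73). Kcnj2 did not pass from 0.5 to 1 h (0.33, adjusted p = 0.203) and fell afterwards (-0.41, adjusted p = 4.44e-05).

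Other genes rose further. Fos and Npas4 rose by 0.98 and 1.06 from 0.5 to 1 h and by 0.56 and 0.72 from 1 to 2 h on the log2 scale, Ptgs2 by 1.63 and 1.51, and Atf3 by 2.03 and 1.69, all past the test. In a further set the log2 step from 1 to 2 h was larger than that from 0.5 to 1 h, over a longer interval, and the difference between the steps was not tested. Homer1 rose by 0.51 from 0.5 to 1 h (adjusted p = 6.98e-05) and by 1.98 from 1 to 2 h (adjusted p = 2.86e-13), and Inhba by 0.43 and 2.17 (adjusted p = 0.0169 and 3.52e-13). Bdnf rose by 0.66 and 0.82 and Scg2 by 0.49 and 0.83. Among falling genes, Zfp712 went on from 73.6 at 1 h to 28.5 at 2 h (step -1.41, adjusted p = 2.86e-06) and Zfp273 from 56.4 to 26.1 (-1.07, adjusted p = 0.000178), whereas Klf10, which was lower at 1 h, rose by 0.50 from 1 to 2 h (adjusted p = 1.80e-05).

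**Figure D5:**
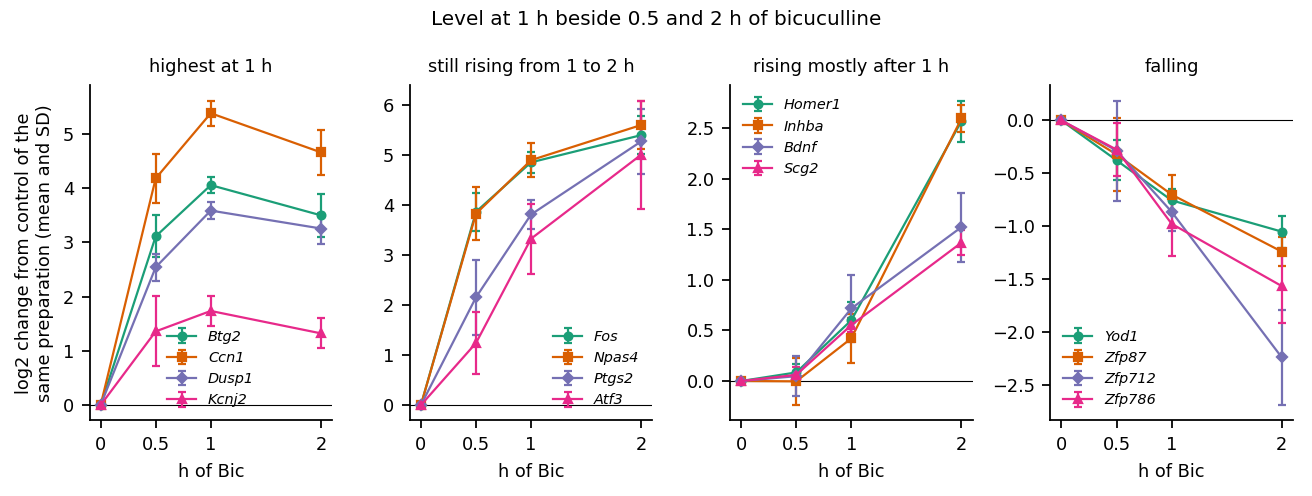
Change from the control of the same preparation (y axes, log2 scale with a pseudocount of 0.5; points are means and bars SDs of 5 preparations) at 0, 0.5, 1 and 2 h of Bic (x axes) for 16 genes in 4 panels with their own y scales. Btg2, Ccn1, Dusp1 and Kcnj2 are highest at 1 h, Homer1 and Inhba are below 1 at 1 h and above 2 at 2 h, and the means of Yod1 and the Zfp genes are lower at each later time.

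The preparations did not contribute alike. Genes called higher in any 4 preparations were also higher in the preparation left out for 85.6% (preparation 3) to 99.3% (preparation 7) of them, against 46.3% to 56.7% of all genes tested. For genes called lower, the share that fell in the preparation left out was 69.5% (preparation 3) to 100% (preparation 7). The control library of preparation 3 differed most from the other controls, with a standard deviation of log2 differences across genes of 0.332 against 0.205 to 0.259 for the other 4. Without preparation 3 the counts rose to 777 genes higher and 564 lower, and without preparation 7, the deepest control library, they fell to 274 and 39. The fit without preparation 3 had prior degrees of freedom, the weight given to the spread shared over genes, of 26.4. They were 8.38 with all preparations and 7.84 to 8.84 without any other one. The part of this difference in the counts was not tested. Of the 618 genes called with all preparations, 612 were called in the same direction without preparation 3 and 310 without preparation 7. Without the replicate block, Klf6, Rem2, Spry4, Nptx2 and Sstr3 were among the genes that lost the call (adjusted p = 0.112, 0.0749, 0.111, 0.197 and 0.302). The 443 genes with a higher level took 2.23% to 2.43% of all counts in the control libraries and 3.80% to 4.48% after 1 h Bic, where preparation 3 had the lowest share.

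Just inside the threshold were Klhl29 (0.20 ± 0.05 (SE)), Timm10b (-0.39 ± 0.10 (SE)) and Xrra1 (0.82 ± 0.21 (SE)), with adjusted p-values of 0.0496, 0.0499 and 0.0499. Just outside were the postsynaptic scaffold Shank1 (0.34 ± 0.09 (SE)), Cit (0.27 ± 0.07 (SE)) and Tle3 (0.24 ± 0.06 (SE)), each with an adjusted p of 0.0501. The level of Shank1 rose in 5 of 5 preparations, by 0.92 on the log2 scale in preparation 3 and by 0.13 to 0.30 in the others. Without preparation 3 its log2 fold change was 0.20 (adjusted p = 0.000972).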

How the data were processed

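Poly-A RNA was sequenced in strand-specific libraries on an Illumina NextSeq 500 in 75 single-end cycles. The authors deposited counts of reads per Ensembl gene, 1 column for each library. Per the labels and the study's methods, reads were mapped with STAR 2.5.4b to GRCm38 (Ensembl release 94) and counted with featureCounts 1.6.5, and reads with several mapping positions, or on more than 1 gene, were left uncounted. This can lower the counts of near-identical gene copies. Totals ranged from 11316580 to 50527649 counts per library, and shallow libraries measure low genes less precisely.

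Genes passing filterByExpr were tested with edgeR 4.0.16 (R 4.3.3; TMM normalization, quasi-likelihood test, Benjamini-Hochberg adjusted p under 0.05) with the culture preparation as a block. The labels give the preparation of each library. Deviations of same-numbered libraries from their group means correlated at 0.451, 0.358, 0.579, 0.662 and 0.506 for preparations 1, 3, 6, 7 and 8 (13476 genes). For different preparations the mean was -0.126, a value that subtracting the group means largely sets in advance, so it is no separate contrast. Normalized counts are counts divided by the effective library sizes of the 20 control, 0.5 h, 1 h and 2 h Bic libraries and scaled to their geometric mean. No libraries were identical. Symbols and positions came from GENCODE M21.

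Named genes were the 12 called genes with the largest rise and the 8 with the largest fall (mean normalized count of at least 100 in the higher condition, same direction in 5 of 5 preparations), the 5 with the largest gain in count, up to 4 members of each list with the lowest p-values, a panel of 12 activity-regulated genes, and 3 genes on each side of the threshold. Any other gene in the text was named after its values were seen. The comparison, the lists and these rules were chosen with earlier results of these data known. Alternatives were no block, all genes with at least 1 read, RLE size factors, DESeq2 1.42.0, a fit over all 45 libraries and leaving out each preparation. The fitting code was tested on simulated data.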

Additional observations from a re-analysis of the deposited data

Results flagged for a closer look

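In 58 groups of 5 libraries looked at (27 named genes, the share of counts in the genes with a higher level and the mitochondrial share, in both conditions), 4 values stood apart from the other 4 of their group by Dixon's criterion, which chance alone meets in about 1 in 20 groups. Fos after 1 h Bic read 20318 normalized counts in preparation 3, against 24821 to 25439 in the other preparations. Atf3 in the controls read 668 in preparation 8, against 99.1 to 171. Zfp11 read 134 in the control of preparation 6, against 111 to 117, and 91.0 after 1 h Bic in preparation 3, against 66.5 to 72.6. The cause was not tested for any of them.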

How the results depend on the processing

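The 443 genes higher and 175 lower after 1 h Bic rested on the paired fit. Without the replicate block, on the same genes, 254 were higher and 58 lower, and 312 of the 618 calls were made in the same direction. Over all genes with at least 1 read the counts were 297 and 60 without the block, and 806 and 409 with the replicate block, where the prior degrees of freedom were infinite. RLE size factors gave 445 and 170, DESeq2 with the replicate block 441 and 142, DESeq2 without it 310 and 96, and a fit over all 45 libraries 658 and 435. Leaving out each preparation gave 274 to 777 genes higher and 39 to 564 lower, with the lowest counts without preparation 7 and the highest without preparation 3. Between 0.5 and 1 h the counts were 146 and 5 without the replicate block, and 166 to 243 and 10 to 62 on leaving out each preparation. Between 1 and 2 h they were 792 and 976, and 1324 to 1525 and 1530 to 1777. Of the 115 genes picked by the naming rules 0 reversed, 41 had another call under at least 1 alternative, and 55 of 71 called ones kept the call under every alternative run. The cause of these shifts was not tested.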
